A study of Mus musculus with 2 samples.

Results

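Nuclear receptors are transcription factors that are switched by small fat-soluble ligands such as thyroid hormone, retinoic acid, bile acids, oxysterols and steroids, or, in orphan receptors, act without a known hormone. The group described here is 44 nuclear receptor genes, taken by name from a fixed list, out of 21951 protein-coding genes in the annotation. Most of these proteins share a DNA-binding domain and a ligand-binding domain and bind, alone or as partners of a retinoid X receptor, to copies of the half-site AGGTCA; the receptors of glucocorticoids, mineralocorticoids, progesterone and androgens bind AGAACA instead. Nr0b1 and Nr0b2 lack the DNA-binding domain and repress other receptors. In the adult liver the receptors of bile acids, oxysterols, fatty acids and foreign compounds set metabolism, while in blood-forming tissue the thyroid hormone, retinoic acid and glucocorticoid receptors act on the choice between growth and maturation of precursors.

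Chromatin was profiled by DNase-seq, in which the nuclease DNase I cuts accessible DNA and the cut ends are sequenced, in the liver of mouse embryos of strain B6NCrl at embryonic day 11.5, male and female embryos pooled. At this age the organ contains hepatoblasts, which later become hepatocytes, and is filling with red blood cell precursors. The 2 libraries are technical replicates 7 and 1 of biological replicate 1, so there is 1 biological sample, no second condition, no test across samples, and no measure of the spread between animals. The labels name no allele, treatment or agent. Technical replicate 7 had 86036 peaks and technical replicate 1 had 42422, of which 46.2% and 89.9% lay in regions listed in both. The density of a peak is the highest density of DNase cuts inside it, in the authors' units; it fell on steps of 0.00401 in technical replicate 7 and 0.0101 in technical replicate 1, so densities and ranks are read within a library. Since the tissue is a mixture, fewer cells of a type and a less open site in each cell cannot be told apart.

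A start was called open where a listed peak overlapped the 1 kb on either side of an annotated transcript start. Where a density of each library is given for the starts of a gene, it is that of the library's own strongest start peak. The peaks of the libraries then need not overlap, and those of Rara, Nr1d2 and Nr2f1, among others, do not. Of the 44 nuclear receptor genes, 37 had an open start in technical replicate 7, beside 65.3% of all protein-coding genes, and 34 had one in technical replicate 1, beside 59.8%. The same start was open in both libraries in 33 of 44 members, or 75% (exact Clopper-Pearson 95% interval 59.7 to 86.8%, counting error only), against 59.4% of all protein-coding genes. The background share lies just below the lower end of the members' interval. That is no test, because the members are a fixed list and were not matched to all genes in content of CG. Shares among genes of like CG content are given further on. Where open in both, the members' strongest peaks were of lower rank: their mean rank percentile, over both libraries, had a median of 79.2 (n = 33), against 87.6 over all genes open in both (n = 13033). The members open in neither library were Nr1i2, Nr1i3, Nr0b2, Nr2e1, Nr2e3, Nr5a1 and Nr0b1. Openness was uneven among the roles of the receptors: the same start was open in both libraries in 7 of 7 receptors tied to blood formation and in 15 of 15 widely expressed ones, but in 3 of 7 whose main site is the liver and gut and in 8 of 15 whose main site is another organ. These classes follow textbook sites of action and are no replicates of each other, so no test was made between them.

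**Figure D1:**
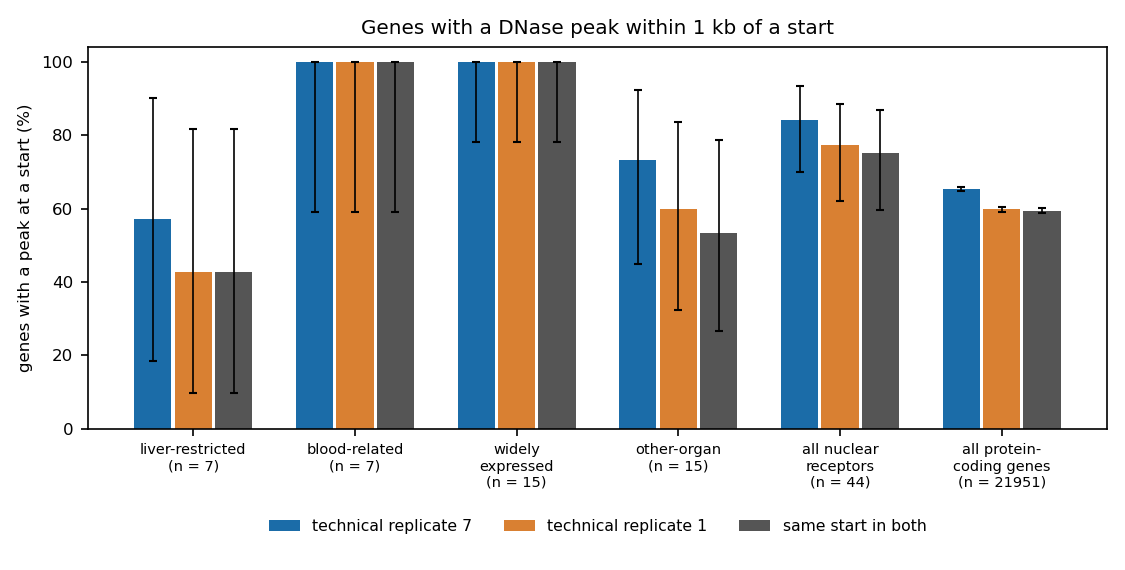
Share of genes with a DNase peak within 1 kb of a start, in percent, for 4 classes of nuclear receptor genes, all 44 of them and all 21951 protein-coding genes; colours give technical replicate 7, technical replicate 1 and the same start in both, and bars have exact 95% intervals for counting error. Blood-related and widely expressed receptors reach 100%, and liver-restricted receptors 42.9% for the same start in both, with wide intervals (9.90 to 81.6% for 7 genes).

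Of the 7 receptors whose main work is in the liver and gut, 3 were open at a start in neither library. Ppara, the fatty acid receptor that drives fat burning in fasting, was the most open of them, with a density of 2.50 in technical replicate 7 and 2.76 in technical replicate 1 at its start. Nr1h3, the oxysterol receptor LXR alpha, had 1.39 and 1.72. Nr5a2, the receptor LRH-1 that supports bile acid synthesis, had 0.569 and 1.21, at a mean rank percentile of 46.1. These 3 were the liver-restricted receptors with the same open start in both libraries.

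Nr1h4, the bile acid receptor FXR, had a weak peak of density 0.324 in technical replicate 7, at rank percentile 5.13 of that library's peaks, and no peak at a start in technical replicate 1. Nr1i2 (the receptor PXR) and Nr1i3 (the receptor CAR), which sense foreign compounds and raise drug metabolism, and Nr0b2 (SHP), the repressor that bile acids induce through Nr1h4, lacked a start peak in both libraries. The nearest peaks to the Nr1i2 start lay 5590 bp away in technical replicate 7 and 46883 bp away in technical replicate 1. For Nr1i3 they lay 6888 and 6851 bp away, in an intron of Tomm40l, and for Nr0b2 3922 and 7167 bp away. Nr0b2 still overlapped a hotspot, a broader region of raised cutting, with a highest −log10 FDR of 2.86 in technical replicate 7 and 1.93 in technical replicate 1, while Nr1i2 and Nr1i3 overlapped none in either library. With the longer peak lists and an earlier peak list of technical replicate 1, Nr1i2 and Nr1i3 again had no peak at a start; Nr0b2 had one in the longer list of technical replicate 7 and in the earlier list of technical replicate 1, and Nr1h4 had one in the earlier list.

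The promoters of these closed liver genes are shown with that of the open liver gene Ppara and that of Esrra, which had the strongest start peak of all members, because they differ in their content of CG. The sequences run from 250 bases before to 50 after the start and are RefSeq promoters on GRCm38.p6, with each CG in capitals: Nr1i2 at chr16:38294775-38295074 on the minus strand, Nr1i3 at chr1:171213720-171214019 on the plus strand, Nr0b2 at chr4:133553126-133553425 on the plus strand, Ppara at chr15:85735526-85735825 on the plus strand and Esrra at chr19:6921759-6922058 on the minus strand. The 3 closed promoters hold 2, 3 and 3 CGs in this order, against 30 in Ppara and 25 in Esrra. Not all members follow this split. The RefSeq promoters of the open liver gene Nr1h3 hold 8 and 10, and that of open Nr1d1 holds 9. Those of the closed genes Nr2e1 and Nr0b1 hold 19 and 14. The promoters of Nr5a2 hold 2 and 7, but neither overlapped a peak of both libraries, although the gene was called open. The one with 2 overlapped a peak of technical replicate 7 alone.
Nr1i2 promoter: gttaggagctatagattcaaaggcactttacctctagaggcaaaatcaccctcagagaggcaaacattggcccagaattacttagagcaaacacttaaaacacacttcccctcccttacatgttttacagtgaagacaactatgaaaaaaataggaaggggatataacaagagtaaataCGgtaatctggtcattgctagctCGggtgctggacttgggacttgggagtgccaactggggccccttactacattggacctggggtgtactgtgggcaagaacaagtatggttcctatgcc
Nr1i3 promoter: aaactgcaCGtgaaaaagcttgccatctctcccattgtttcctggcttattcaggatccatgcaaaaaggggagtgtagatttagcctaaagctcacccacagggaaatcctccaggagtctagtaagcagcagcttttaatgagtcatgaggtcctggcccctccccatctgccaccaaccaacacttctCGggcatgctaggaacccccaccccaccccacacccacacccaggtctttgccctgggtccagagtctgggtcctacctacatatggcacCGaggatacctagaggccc
Nr0b2 promoter: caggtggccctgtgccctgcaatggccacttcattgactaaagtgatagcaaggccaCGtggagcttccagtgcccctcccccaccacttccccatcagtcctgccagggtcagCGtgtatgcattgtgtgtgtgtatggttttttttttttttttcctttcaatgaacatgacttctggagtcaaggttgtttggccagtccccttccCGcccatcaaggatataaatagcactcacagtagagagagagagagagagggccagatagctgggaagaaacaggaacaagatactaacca
Ppara promoter: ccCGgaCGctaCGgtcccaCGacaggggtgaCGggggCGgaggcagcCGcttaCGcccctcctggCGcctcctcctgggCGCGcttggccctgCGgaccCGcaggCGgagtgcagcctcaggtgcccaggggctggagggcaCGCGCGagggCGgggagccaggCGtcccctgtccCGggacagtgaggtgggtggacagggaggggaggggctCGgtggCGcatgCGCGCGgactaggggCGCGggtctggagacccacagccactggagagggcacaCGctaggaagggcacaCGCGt
Esrra promoter: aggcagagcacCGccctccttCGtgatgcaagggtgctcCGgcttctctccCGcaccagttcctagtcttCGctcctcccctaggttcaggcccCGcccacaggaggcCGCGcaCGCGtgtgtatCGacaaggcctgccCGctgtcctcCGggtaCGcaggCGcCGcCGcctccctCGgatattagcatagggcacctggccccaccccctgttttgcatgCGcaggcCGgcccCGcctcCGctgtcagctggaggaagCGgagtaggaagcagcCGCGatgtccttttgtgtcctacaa

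The 7 blood-related receptors had an open start in both libraries, in each case at a mean rank percentile above 72. Nr2c2 (TR4), an orphan receptor that with Nr2c1 (TR2) represses embryonic globin genes, had the strongest start peak of the class, with a density of 4.98 in technical replicate 7 and 6.02 in technical replicate 1. Nr2c1 itself had 1.96 and 1.94. Nr3c1, the glucocorticoid receptor that sustains expansion of red cell precursors under stress, had 3.17 and 3.05. Its open windows were those of 2 of its 4 annotated starts.

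Rara, the retinoic acid receptor alpha of myeloid differentiation, had 3.13 in technical replicate 7 and 2.19 in technical replicate 1, at different starts. The start with 3.13 had 2.07 in technical replicate 1, and the start with 2.19 had 2.25 in technical replicate 7. Thra, the thyroid hormone receptor alpha, had 2.31 and 2.32. Both genes also stood out for peaks away from their starts, described further on. The immediate early genes Nr4a1 (Nur77) and Nr4a3 (Nor1), orphan receptors that respond within minutes to signals and restrain growth of myeloid cells, were the weakest of the class. Nr4a1 had 1.78 and 1.75, and Nr4a3 had 1.36 and 1.68. Blood-related and liver-restricted start peaks thus overlapped in strength where both were open: Ppara lay above 5 of the 7 blood-related genes in mean rank percentile (86.6, against 89.6 for Nr3c1 and 98.8 for Nr2c2 above it).

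The Nr2c2 promoter is shown because it had the strongest start peak of the blood-related class and several footprints, short stretches protected from cutting. The sequence is the RefSeq promoter on GRCm38.p6 at chr6:92092183-92092482, plus strand, with capitals for bases inside a footprint of both libraries; it held 4 such footprints.
Nr2c2 promoter: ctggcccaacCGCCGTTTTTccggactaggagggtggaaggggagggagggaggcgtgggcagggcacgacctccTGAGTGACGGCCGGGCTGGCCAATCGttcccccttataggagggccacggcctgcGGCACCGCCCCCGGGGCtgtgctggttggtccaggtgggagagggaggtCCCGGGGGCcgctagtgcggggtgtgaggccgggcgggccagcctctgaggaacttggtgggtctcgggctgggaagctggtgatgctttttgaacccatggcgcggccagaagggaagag

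**Figure D2:**
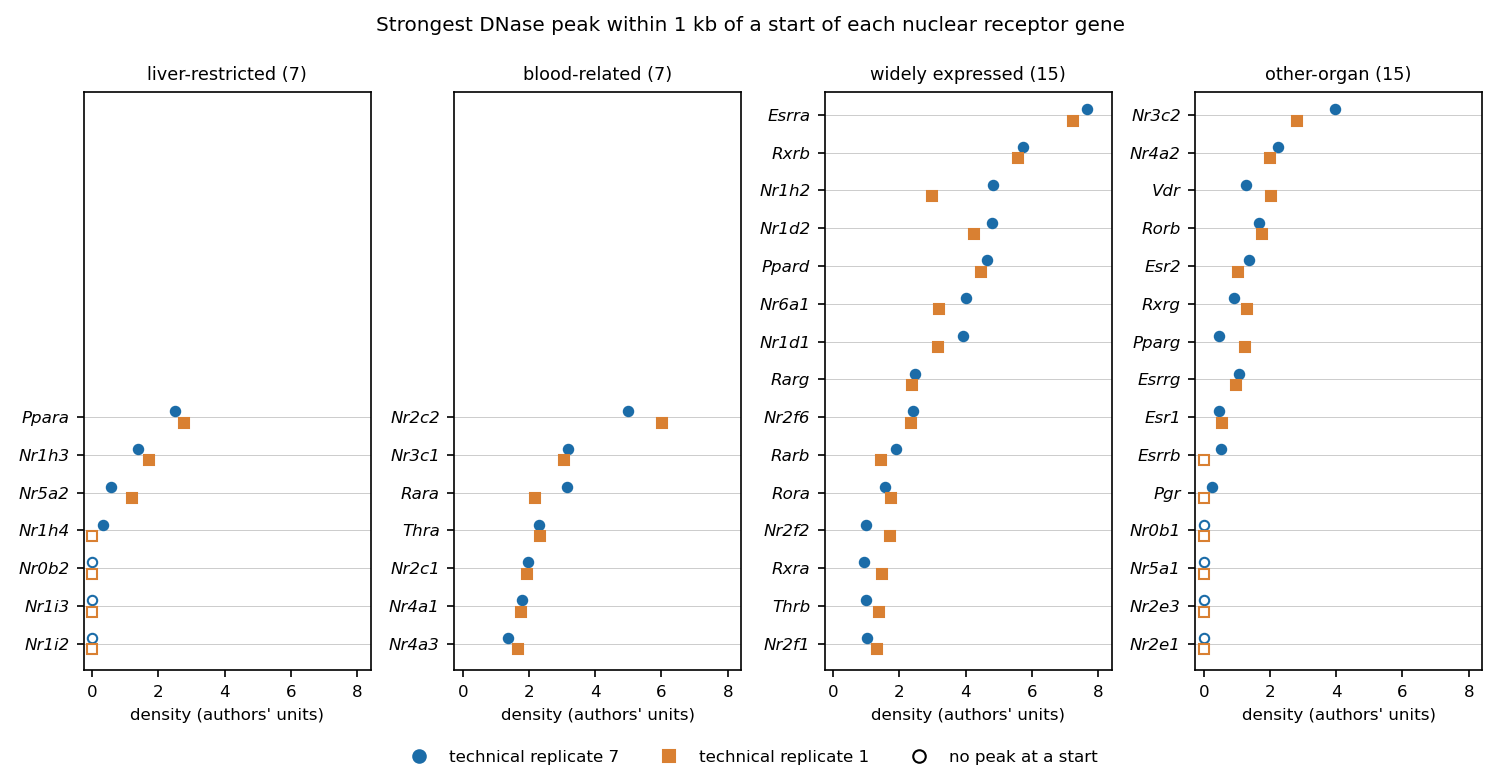
Highest density of DNase cuts (authors' units, scaled per library) in the strongest peak within 1 kb of a start, for each of the 44 nuclear receptor genes in 4 classes; circles are technical replicate 7, squares technical replicate 1, and open symbols at 0 mean that no peak was listed. Esrra is highest at 7.67 and 7.24, and 7 genes have open symbols for both libraries.

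By mean rank percentile of the start peak, the top 2 of the 44 genes were widely expressed receptors, and the blood-related Nr2c2 came next. Esrra, the estrogen-related receptor alpha that drives mitochondrial genes, had a density of 7.67 in technical replicate 7 and 7.24 in technical replicate 1, at a mean rank percentile of 99.96 among all listed peaks. Rxrb, a retinoid X receptor and thus a partner of many other members, had 5.72 and 5.57 (mean rank percentile 99.2). Its start lies 150 bp from a start of Slc39a7, a zinc transporter gene, so the peak cannot be given to either gene alone. Ppard, the fatty acid receptor of most tissues, had 4.64 and 4.47 (mean rank percentile 97.0). At the low end of the class Nr2f1 (COUP-TFI) had 1.03 and 1.31, and Thrb, the thyroid hormone receptor beta, had 0.981 and 1.38; both lie below the median of open members.

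Within families of close relatives the start peaks differed in strength. Of the retinoid X receptors, Rxra, the main form of the adult liver, had 0.941 in technical replicate 7 and 1.47 in technical replicate 1, and Rxrg, of muscle and brain, had 0.917 and 1.30, both far below Rxrb. Of the oxysterol receptors, the widely expressed Nr1h2 (LXR beta) had 4.83 and 2.97, above the liver form Nr1h3 at 1.39 and 1.72. Of the fatty acid receptors, Ppard lay above Ppara, and Ppara above Pparg, the receptor of fat cells, which had 0.473 and 1.23. The clock repressors Nr1d1 and Nr1d2 (REV-ERB alpha and beta) were both strong, with 3.91 and 3.15 for Nr1d1 and 4.78 and 4.26 for Nr1d2. Their opponent Rora, an activator at the same sites, had 1.55 and 1.74. Each of these orders held in both libraries; with 1 biological sample none was tested.

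Receptors whose main site is another organ were mixed. The strongest start peaks were those of Nr3c2, the mineralocorticoid receptor of kidney and brain, with 3.97 in technical replicate 7 and 2.82 in technical replicate 1, Nr4a2 (Nurr1), needed for dopamine neurons, with 2.24 and 2.01, and Rorb, of retina and cortex, with 1.66 and 1.76. Vdr, the vitamin D receptor, had 1.28 and 2.02. Nr3c2, Nr4a2 and Rorb thus had start peaks at least as dense as Nr1h3 or Nr5a2, whose main site is the liver and gut. The third open gene of that class, Ppara, at 2.50 and 2.76, lay below Nr3c2 but above Nr4a2 and Rorb.

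Esrrb, a receptor of stem cells and placenta, had a start peak in technical replicate 7 alone, of density 0.517, and so did Pgr, the progesterone receptor, at 0.260 and rank percentile 0.654. Esr1, the estrogen receptor alpha, had a peak of 0.453 in technical replicate 7 and another of 0.545 in technical replicate 1 at a start 98562 bp from its 5′ end, so it was open in each library but at different starts. The closed genes of this class were Nr2e1 (TLX) of neural stem cells, Nr2e3 of photoreceptors, and Nr5a1 (SF-1) and Nr0b1 (DAX1) of the adrenal gland and gonad. Nr2e3 had a shared peak of 2.54 and 1.78 that lay 1158 bp from the 5′ end of the gene, but 9252 and 9245 bp from its annotated transcript start, and so was not counted as open. With the longer peak lists or the earlier list of technical replicate 1, Nr2e1, Nr5a1 and Nr0b1 each gained a start peak in technical replicate 1 in at least 1 list, whereas Nr2e3 gained none. Nr0b1 also gained one in the longer list of technical replicate 7. In the shorter lists used throughout, the nearest peak to the Nr0b1 start lay 258457 bp away in technical replicate 7 and 414786 bp away in technical replicate 1.

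Hotspots and footprints were also listed at most members' starts. A hotspot overlapped the same start in both libraries in 37 of 44 members (84.1%, 95% interval 69.9 to 93.4), beside 64.4% of all protein-coding genes. Footprints of both libraries lay within 1 kb of the same start in 34 of 44 (77.3%, 62.2 to 88.5), beside 58.6%. They need not be the same footprint: Thrb, Nr2f2 and Nr4a3 were counted, but none of their start footprints overlapped between the libraries. Both background shares lie below the members' intervals, which cover counting error only. Here too the members were not matched to all genes in content of CG, and no test was made. Nr5a1 had hotspots of −log10 FDR 1.58 in technical replicate 7 and 2.48 in technical replicate 1 without a peak, while Nr2e1 had one of 2.71 in technical replicate 1 alone and Nr0b1 one of 2.65 in technical replicate 7 alone.

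Many nuclear receptor genes start at several places, and often some of these were open and others closed. The 44 genes had 111 annotated starts, of which 65 were open in both libraries, 13 in technical replicate 7 alone, 1 in technical replicate 1 alone and 32 in neither; neighbouring starts can share a peak. Among the 34 genes with more than 1 start, 11 had each of them open in both libraries, 16 had some open in both and others not, and 7 had none open in both. Pparg had open windows at its 5′ end and 1341 bp further on but none at the start 61115 bp downstream, and Thrb was open near its 5′ end but not 321268 bp downstream. Rarg, the retinoic acid receptor of skin and cartilage, showed the reverse, closed at its 5′ end and open 11017 bp downstream with densities of 2.47 and 2.37. Rara was open in both libraries near 9900 bp and at 32594 bp from its 5′ end, and in technical replicate 7 alone at the 5′ end.

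Rora was open at both of its starts, 635896 bp apart, with 0.681 and 1.57 at the upstream start and 1.55 and 1.74 at the downstream one. Esrrg was open at starts 389036 bp apart. Nr5a2 was open in both libraries at its downstream starts, and in technical replicate 7 alone at its 5′ end. Counting the 5′ end of the gene as the only start left 26 of 44 members open in both libraries. The share of all genes under that count is not given here.

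**Figure D3:**
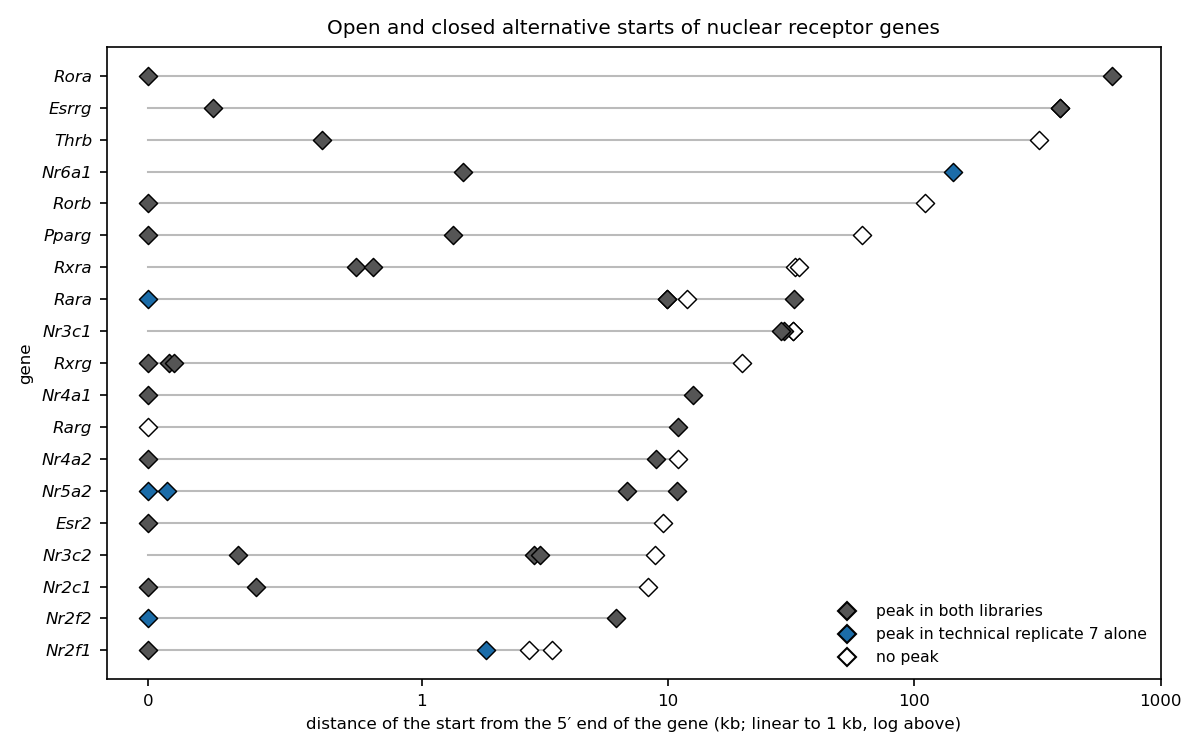
Annotated starts of 19 nuclear receptor genes by distance from the 5′ end of the gene in kb (linear to 1 kb, logarithmic above): grey diamonds have a peak within 1 kb in both libraries, blue ones in technical replicate 7 alone, white ones in neither. Shown are the 16 genes with starts both open and not open in both libraries, and Rora, Esrrg and Nr4a1, whose distant starts are open.

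Open members were mostly those with a start rich in CG. A start was called CpG-rich where the observed over expected ratio of CG in 500 bp on either side was at least 0.6. Such a start was present in 32 of 44 members, against 11105 of 21938 protein-coding genes. Of the 32 members with a CpG-rich start, 29 were open in both libraries (90.6%, 95% interval 75 to 98.0), against 93.3% of the 11105 genes. Of the 12 members without one, 4 were open (33.3%, 9.92 to 65.1), against 24.6% of 10833 such genes. The 4 were Nr1d1, Nr1h3, Esr2 (the estrogen receptor beta) and Nr5a2, and the CpG-rich genes not open in both were Nr2e1, Nr5a1 and Esrrb.

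The classes differed in this content. A CpG-rich start was present in 7 of 7 blood-related, 14 of 15 widely expressed and 10 of 15 other-organ receptors, against 1 of 7 liver-restricted receptors, Ppara. The share of open genes and the share of CpG-rich genes therefore ran together across the classes and cannot be told apart with these few genes. By the CG content of the gene's 5′ end alone, which was the definition used first, 19 of 20 CpG-rich members were open in both libraries, against 92.7% of all such genes, and 14 of 24 others (58.3%, 36.6 to 77.9), against 31.0%. Counted over each annotated start, the last pair of shares was the 33.3% and 24.6% given above.

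Away from the starts, most members had open sites nearby. A distal peak lay in the gene body or within 50 kb of it and over 1 kb from every annotated start; it was shared where the libraries overlapped by at least 1 bp. At least 1 distal shared peak was found for 36 of 44 members, beside 58.4% of all protein-coding genes, and the mean number was 2.48 per member (median 2), against 1.55 per protein-coding gene (median 1). The members are longer, with a median of 46.8 kb against 17.4 kb, so their windows are wider. Per 100 kb of window the means were 1.73 for the members and 1.18 for all genes, and within 50 kb of the 5′ end, a window of equal width, 1.82 and 1.17. The medians per 100 kb of window were 0.932 and 0.742. Without Thra and Nr1d1, whose windows share 13 distal shared peaks, the mean number per member was 1.95 over the remaining 42. That value is not adjusted for window width and stands beside the 1.55 of all genes. The adjusted means include Thra and Nr1d1, and how much of their excess these 2 genes carry was not tested.

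Distal peaks were most numerous around Thra and Nr1d1, which overlap tail to tail by 1075 bp on chromosome 11. Thra had 14 distal shared peaks, more than 99.9% of protein-coding genes, and Nr1d1 had 13, all of which also lay in the Thra window. The strongest was in an intron of Nr1d1, 1327 bp from its start, with a density of 4.67 in technical replicate 7 and 4.41 in technical replicate 1, above the peak at the start itself (3.91 and 3.15). Others lay in introns of Thra and upstream of Nr1d1, the upstream one farthest from it with 3.24 and 1.85. Which of the genes these sites act on was not measured. Med24 and Msl1 also have starts in this stretch.

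**Figure D4:**
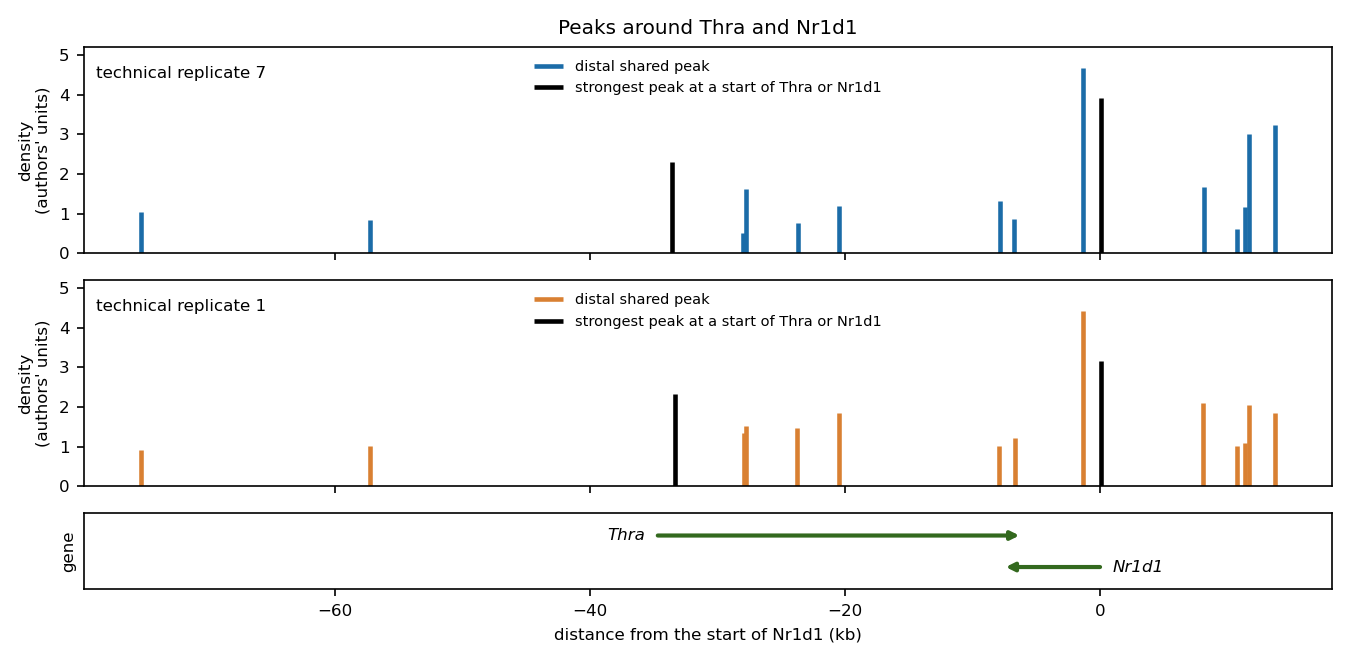
Density of peaks around Thra and Nr1d1 by distance from the start of Nr1d1 in kb, in technical replicate 7 (upper panel) and technical replicate 1 (middle panel); coloured bars are the 14 distal shared peaks, black bars the strongest start peak of each gene, and arrows the gene bodies. The tallest bar in both libraries is the intronic peak beside the Nr1d1 start, at 4.67 and 4.41.

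After these, Rora, Ppard and Nr1h2 had 6 distal shared peaks each, and Rara and Rxra 5 each. The 6 of Rora all lay in its own introns and were weak, none above a density of 0.961 in technical replicate 7, and the 5 of Rara were also intronic, the strongest at 1.93 and 1.97. In Rxra the strongest, at 2.61 and 2.28, lay 64004 bp into the gene and exceeded its start peak. Nr1h2, by contrast, is a short gene, and its 6 peaks lay outside it, 3 of them in Mybpc2 or in exons of Spib. Nr4a1 had 1 of the strongest distal peaks of the family, with 5.31 in technical replicate 7 and 3.41 in technical replicate 1, 7827 bp upstream of its 5′ end, against 1.78 and 1.75 at its own starts. Nr4a3 had one of 3.48 and 3.71 that lay 1775 bp from its 5′ end, against 1.36 and 1.68 at the start. Thus Nr4a1 and Nr4a3 each had a nearby site denser than their start. Nr4a2, of the same subfamily, went the other way: its only distal shared peak had 1.23 and 1.76, against 2.24 and 2.01 at its starts.

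The intronic peak of Nr1d1 and the upstream peak of Nr4a1 are shown as the strongest distal sites. They are read on the plus strand of GRCm38.p6, at chr11:98773871-98774170 (300 bases around the summit) and chr15:101246295-101246589, with capitals for bases inside a footprint of both libraries; they held 4 and 2 such footprints, and 25 and 27 CGs.
Nr1d1 intronic peak: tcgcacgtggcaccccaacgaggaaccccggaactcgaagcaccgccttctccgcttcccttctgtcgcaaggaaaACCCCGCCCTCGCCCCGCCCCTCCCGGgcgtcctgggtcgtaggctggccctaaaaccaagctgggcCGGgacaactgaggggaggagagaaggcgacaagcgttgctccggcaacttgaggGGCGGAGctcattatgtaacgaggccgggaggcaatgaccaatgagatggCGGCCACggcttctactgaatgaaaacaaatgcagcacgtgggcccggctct
Nr4a1 upstream peak: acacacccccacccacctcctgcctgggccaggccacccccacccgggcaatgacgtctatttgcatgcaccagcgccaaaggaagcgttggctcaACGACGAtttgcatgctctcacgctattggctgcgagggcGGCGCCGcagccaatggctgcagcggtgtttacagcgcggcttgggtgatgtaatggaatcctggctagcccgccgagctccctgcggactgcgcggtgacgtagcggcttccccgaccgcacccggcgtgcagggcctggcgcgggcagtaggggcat

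Liver-restricted receptors had few distal shared peaks, with a mean of 1.29, against 4.0 for blood-related, 3.33 for widely expressed and 1.47 for other-organ receptors. Without Thra the blood-related mean was 2.33, and without Nr1d1 that of widely expressed receptors was 2.64. Nr0b2, closed at its start, had 3 distal shared peaks, all intergenic and at least 39407 bp away, the strongest at 1.99 and 2.03. Nr1h4 had 1 in its own intron, 71538 bp from its 5′ end, with 2.54 in technical replicate 7 and 0.717 in technical replicate 1. Ppara had 3 upstream, the strongest at 1.39 and 0.960. Members with no distal shared peak were Nr1i2, Nr1h3, Nr1d2, Nr3c2, Esr1, Pgr, Rorb and Nr0b1, and of these Rorb and Nr0b1 had none in the list of technical replicate 7 either.

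**Figure D5:**
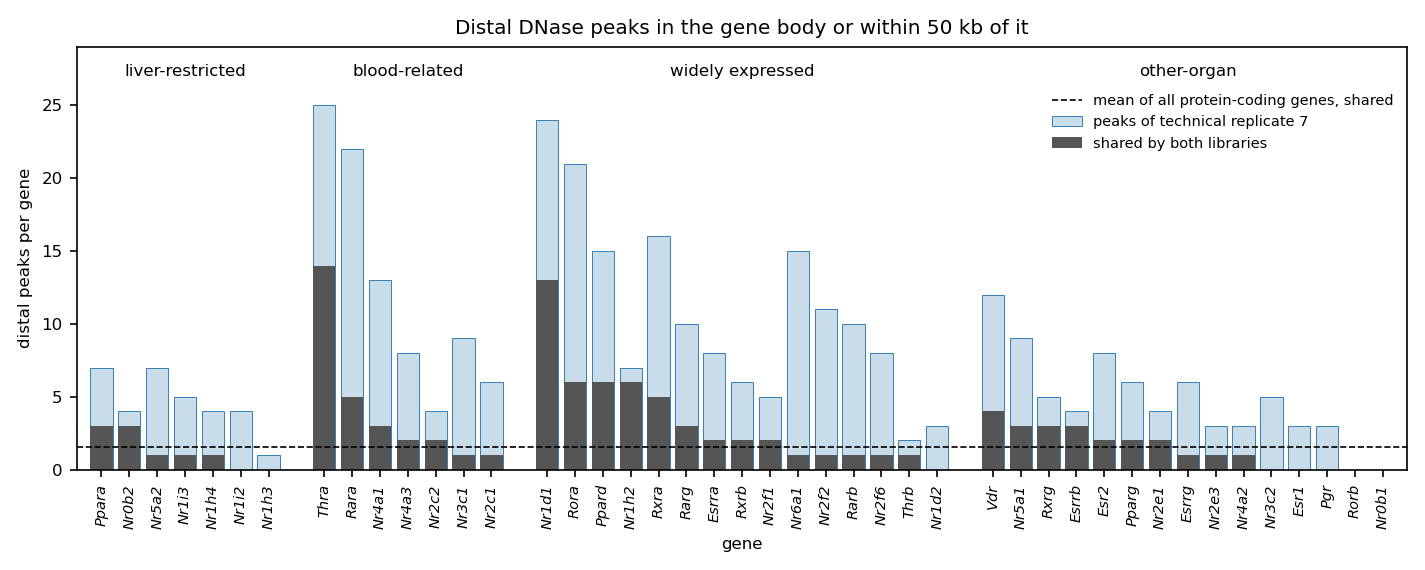
Distal DNase peaks in the gene body or within 50 kb of it, per nuclear receptor gene, ordered within 4 classes by the number shared; pale bars count peaks of technical replicate 7, dark bars those shared by both libraries, and the dashed line is the mean of 1.55 shared peaks over all protein-coding genes. Thra (14) and Nr1d1 (13) stand highest; their windows share 13 peaks.

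Some motifs lay in smaller shares of the members' promoters or peaks than of all, others in similar or larger shares, and the members' counts were small. RefSeq promoters matched 41 of 44 members by symbol, 61 promoters in all, and 50.8% of these overlapped a peak of both libraries, against 38.5% of 32851 promoters. The half-site AGGTCA, searched on both strands, lay in 12 of 61 member promoters (19.7%), against 16.3% of all. The steroid receptor half-site AGAACA lay in 5 (8.20%), against 19.0%, and the GATA motif of red cell factors (AGATAA or TGATAA) in 5 (8.20%), against 18.6%; AGATAA can overlap TGATAA, and a promoter with either was counted once. The longer forms AAAGGTCA and TCAAGGTCA, which contain the half-site, lay in 2 (3.28%) and 0, against 1.51% and 0.423%. CCACACCC, the motif of red cell KLF factors, lay in 1 (1.64%), against 3.56%, and TATAAA in 8 (13.1%), against 13.6%. No direct repeat of AGGTCA spaced by 0 to 5 bases, no everted repeat spaced by 6 and no inverted repeat spaced by 0 or 1 was found in the member promoters, nor in windows of 150 bases around their shared peaks. Each of these repeats was rare in general, in at most 13 of 32851 promoters (0.0396%), 3 of 13605 distal shared peaks and 1 of 20418 shared peaks at starts. Their absence is therefore not particular to the members. In the 95 distinct distal shared peaks of the members, GATA motifs lay in 14 windows (14.7%), against 14.3% of 13605. The half-site lay in 3 (3.16%), against 8.42%, and CCACACCC in 5 (5.26%), against 2.30%. In the 77 shared peaks at member starts, AGAACA lay in 0 windows, against 4.28% of 20418, and the half-site in 6 (7.79%), against 5.05%. The members' distal windows had a median GC content of 58%, against 55.3%, and their start windows 68%, against 66%. The part of base content in the motif shares was not tested.

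The promoter of Nr1h2 is shown as a case in which a motif that was searched for partly overlapped footprints of both libraries. The RefSeq promoter on GRCm38.p6 lies at chr7:44553916-44554215, minus strand, and capitals mark bases inside a footprint of both libraries. Copies of CCGGAAGT, the motif of ETS factors, overlap both capital stretches, on one strand or the other. CCGGAAGT lay in 1 of 61 member promoters (1.64%), this one, against 3.89% of all promoters.
Nr1h2 promoter: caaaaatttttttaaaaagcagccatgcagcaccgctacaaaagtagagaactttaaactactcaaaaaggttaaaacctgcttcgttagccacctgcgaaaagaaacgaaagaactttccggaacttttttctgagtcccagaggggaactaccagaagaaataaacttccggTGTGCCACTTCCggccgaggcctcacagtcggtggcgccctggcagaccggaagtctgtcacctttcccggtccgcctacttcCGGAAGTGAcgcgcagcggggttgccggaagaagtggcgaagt

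Genes that work with the receptors were read in the same way, in lists of 16 coregulators, 9 clock genes, 13 genes of retinoid handling and 15 targets of liver receptors. The coregulators, which bound receptors recruit to open or close chromatin, had the same start open in both libraries in 16 of 16 genes, led by the acetyltransferase Ep300 with 5.46 and 4.75, the coactivator Ncoa2 with 3.89 and 3.68 and the Mediator subunit Med1 with 4.99 and 2.98. The clock genes that Nr1d1, Nr1d2 and Rora work with were open in 9 of 9, led by Per2 with 6.30 and 4.88, Cry2 with 5.21 and 4.55 and Dbp with 5.73 and 4.0. By contrast, genes that make, carry and degrade retinoids were open in 5 of 13, with 10 of 13 in technical replicate 7; Rdh10, which makes retinal, had 1.92 and 2.79, Dhrs3, which reverses that step, had 1.40 and 2.02, and Aldh1a2, which makes retinoic acid, had 1.05 and 1.23.

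The targets of liver receptors were open in 5 of 15, among them Srebf1, a target of the oxysterol receptors, with 3.97 and 4.38, and the cholesterol exporter Abca1 with 2.64 and 2.23. Cyp7a1, the rate-limiting enzyme of bile acid synthesis, lacked a start peak in both libraries. The background for these counts is the 59.4% of protein-coding genes open at the same start in both libraries, and the 65.3% open in technical replicate 7.

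The tissue was checked against marker genes. Erythroid markers were open at the same start in both libraries in 6 of 7 genes (95% interval 42.1 to 99.6%), the exception being Alas2. Hepatoblast markers were open in 3 of 8 (8.52 to 75.5%), with 7 of 8 in technical replicate 7. Both intervals cover the 59.4% of all protein-coding genes, and 65.3% of these were open in technical replicate 7. Foxa3 was the strongest hepatoblast marker, with 5.36 and 3.46. Afp, Hnf4a, Ttr and Dlk1 had a start peak in technical replicate 7 alone, and Alb lacked one in both. Endothelial markers were open in 2 of 4, macrophage markers in 1 of 3, and mesenchymal markers in 4 of 4. Neuronal markers were open in 2 of 3 and striated muscle markers in 3 of 3, so that peaks were also listed at starts of genes used by cells that the liver is not known to hold. The part of cell mixture in the members' values was not tested.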

How the data were processed

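DNase-seq of 1 biological sample was read from the lists that the authors deposited for technical replicates 7 and 1, called per library on mm10 per the labels; no aligner or caller is named in the sources used here. The deposited peaks carry a signal, the density of DNase cuts, scaled per library by the authors in a way the headers do not state. The deposited hotspots carry a −log10 FDR per the file headers. The deposited footprints are positions, with a constant p-value threshold of 0.01 in technical replicate 1. Each library had 2 peak lists, and the shorter was used. Footprint lists came from different processing, so their numbers were not compared. Densities fell on steps that were coarser by a factor of 2.52 in technical replicate 1; depth itself is not given.

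Starts and genes came from the GENCODE M21 basic annotation. Overlaps, rank percentiles within each library, and exact Clopper-Pearson 95% intervals were computed with Python 3.11.15, numpy 2.4.6 and scipy 1.17.1, and genome bases were read with pysam 0.24.0; the overlap code was tested on simulated peaks. Classes of receptors follow textbook sites of action. Members and lists were chosen with earlier results of these data known. Genes named in full are the liver-restricted and blood-related members, the 3 of highest mean rank percentile in the other classes, members with no start peak, and the 5 with most distal shared peaks; of the other lists, the 3 of highest rank, of which 1 is not reported here. Other members, cell markers with values, Cyp7a1 and the CG content over each annotated start were chosen after their values were seen.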

Additional observations from a re-analysis of the deposited data

How the results depend on the processing

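The same start was open in both libraries in 26 to 37 of 44 members over the alternatives tried, which were the longer peak lists, start windows of 500 and 2500 bp, the 5′ end only, the stronger 50% of peaks, each library alone and, added after seeing the data, an earlier peak list of technical replicate 1. The counts for liver-restricted (2 to 4), blood-related (5 to 7) and widely expressed members (12 to 15) stayed within 1.5 times of the reported ones. For starts, the share of all genes is given for each library alone (65.3% and 59.8%) but not for the other alternatives. The range of members is therefore not set against a matched background. With the stronger 50% of peaks, 5 other-organ members were open in place of 8. Under that setting 22 members had a distal shared peak in place of 36, beside 32.0% of all genes. The mean number was 1.09, against 0.597 over all genes. Counting the gene body alone gave 18 members, beside 19.4% of all genes, and a mean of 0.864, against 0.325 over all genes. The mean was 4.05 with the earlier list, and 2.95 to 7.98 with 1 library in place of both; the higher value counts the peaks of technical replicate 7 alone, against 4.99 over all genes. The cause of these moves was not tested beyond what the settings do by construction, which is to drop or add peaks. In each of these settings the members' mean lay above that of all genes. These means are not adjusted for gene length, and the members are longer, with a median of 46.8 kb against 17.4 kb. How much of the difference in each setting goes with length was not tested. Footprint counts ran from 30 to 41 members, hotspot counts from 34 to 40, and the median rank percentile at starts from 73.0 to 86.7. For these, too, the values of all genes under each alternative are not given. No paired analysis was possible because both libraries belong to 1 group. The number of libraries, both from 1 biological sample, limits the precision, and depth, which the files do not give, limits the weak peaks.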

Other observations

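By subfamily, the same start was open in both libraries in 15 of 18 genes of NR1, 8 of 10 of NR2 and 5 of 8 of NR3. It was open in 3 of 3 of NR4, 1 of 2 of NR5, 1 of 1 of NR6 and 0 of 2 of NR0. The share over all protein-coding genes was 59.4%, and subfamilies this small allow no comparison with it. Each of the 8 steroid and estrogen-related receptor genes of NR3 had a start peak in technical replicate 7, beside 65.3% of all protein-coding genes. In technical replicate 1, 6 had one, beside 59.8%.

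Of the 95 distinct distal shared peaks of the members, 44 lay in introns (46.3%), 37 between genes (38.9%) and 14 in exons (14.7%), against 41.9%, 49.7% and 8.42% of the 13605 distal shared peaks of the whole sample. In total 14 of the 95 lay in the windows of 2 members, 13 of them those of Thra and Nr1d1. In 5 of 44 members the window around a start also held the start of another gene, among them Rxrb with Slc39a7 and the closed gene Nr2e1 with Ostm1.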
